A study of Petunia x hybrida with 12 samples.

Results

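The roots of Petunia hybrida line W115 that received no fungus were described on their own, as the baseline of a study of arbuscular mycorrhiza. The 3 libraries labelled as W115 root without inoculum were taken by their labels, of 12 libraries in all, and no group was compared with another. W115 is the wild-type genotype of the study, and the other groups were W115 with the fungus Rhizophagus irregularis and the mutant ram1-2 with and without it. All samples were whole roots harvested at 15 days post inoculation, which is not the age of the plants. Plantlets had been raised for weeks before they were potted. The plants stood in a sand and soil mixture and were fed weekly with a nutrient solution that held phosphate. The inoculation tag of the fungal groups is absent from these 3 samples. Each library was a paired-end mRNA library. The labels number them as replicates 1 to 3 and do not name separate plants for each, so the spread given here is that between these 3 samples.

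A root takes up water and mineral ions, anchors the plant and releases or withholds compounds at its surface. Water crosses root membranes largely through aquaporins, channel proteins of the plasma membrane (PIP) and of the vacuole membrane, or tonoplast (TIP). When phosphate is scarce, plants raise a known set of genes for phosphate uptake (PHT1 transporters), release from organic molecules (phosphatases and phosphodiesterases) and sensing (SPX proteins). The same condition favours the release of strigolactones, hormones that also stimulate mycorrhizal fungi.

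The deposited table held 32928 gene models of the related species Petunia axillaris. Its total gene reads summed to 12317072 in replicate 1, 12015130 in replicate 2 and 12906761 in replicate 3, of which 97.2%, 97.1% and 97.0% were unique to 1 gene. Levels were taken as RPKM, reads scaled to the length of the gene model and to the library total, so that genes of different length can be set side by side. At least 1 read was found for 26753 gene models in at least 1 library, or 81.2% of all, and 6175 had no read in any library. A mean of at least 1 RPKM, used here as the limit of detection, was reached by 20524 genes, or 62.3%. At least 10 RPKM was reached by 12438 genes and at least 100 RPKM by 1931 genes. The median of the detected genes was 14.7 RPKM.

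The tissue label was set against marker genes. Of 94 gene models described as Rubisco small subunit, chlorophyll a-b binding protein or photosystem protein, 12 reached 1 RPKM, and their levels summed to 61.2 to 64.3 RPKM per library. Of 17 models for pollen, anther or seed storage proteins none reached 1 RPKM. Endodermis markers were present, with 13 of 18 detected and glycerol-3-phosphate acyltransferase 5, an enzyme of suberin synthesis, at 211.5, 162.5 and 162.6 RPKM in replicates 1, 2 and 3. Root hair markers had 9 of 11 models detected and a summed level of 159, 213 and 194 RPKM. Expansin A7, a root hair wall protein in Arabidopsis, was highest for Peaxi162Scf00102g01355.1, at 7.03, 17.9 and 18.0 RPKM. Phloem markers had 12 of 15 detected and a summed level of 103, 95.0 and 103 RPKM. Xylem markers were low, with 6 of 12 detected and a summed level of 37.1, 20.6 and 17.8 RPKM. The stem cell regulator WUSCHEL related homeobox 5 lay below 1 RPKM in every library. Markers of the endodermis, root hairs and phloem were thus measured, and most models of the green tissue list lay below 1 RPKM. The 94 models of that list still summed to more than the 12 xylem models. At least 10 RPKM was reached by 9 endodermis, 3 root hair, 3 phloem, 0 xylem and 1 green tissue models. Over all gene models 62.3% were detected, so counts on lists this short do not by themselves set a cell type apart.

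No small set of genes dominated the libraries. The most abundant gene held 0.506% ± 0.0527 of total gene reads (SD, n = 3), and the 10 genes with the highest mean RPKM held 2.80% ± 0.281. The first 100 genes by RPKM held 14.1% ± 0.395. Ordered by reads, 249 genes carried the first 25% of reads, 1385 genes carried 50% and 8637 genes carried 90%. The median coding length of the first 30 genes was 756 bases, against 1086 bases for detected genes. Length scaling therefore moved short genes up the ranking, and 66 of the first 100 genes by RPKM were also among the first 100 by reads.

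**Figure D1:**
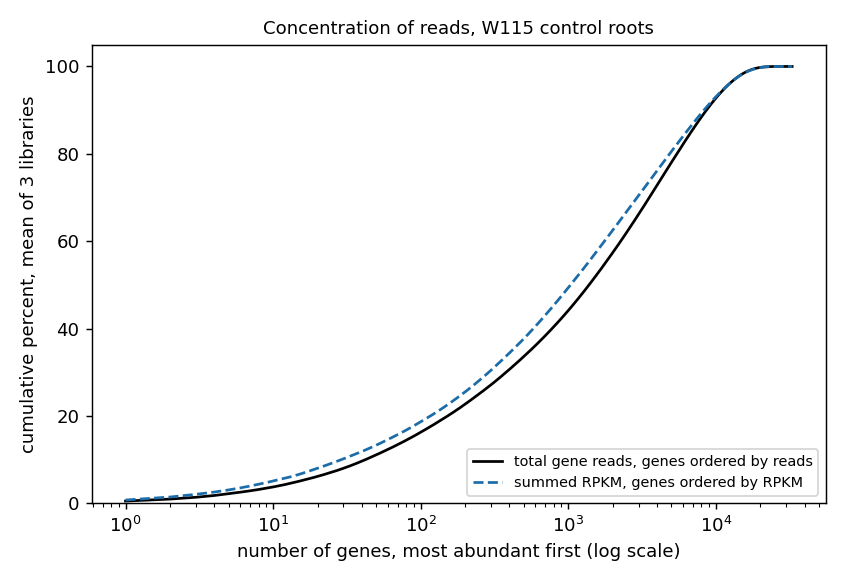
Cumulative percent (vertical axis) carried by the most abundant genes (horizontal axis, number of genes, log scale), as the mean of 3 libraries. The solid line is total gene reads with genes ordered by reads and passes 50% at 1385 genes. The dashed line is summed RPKM with genes ordered by RPKM.

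Among the first 30 genes, 7 had no description and 2 were described only as unknown proteins, and these held the first 4 places. The highest, Peaxi162Scf00037g01227.1, stood at 7665, 7882 and 6465 RPKM in replicates 1, 2 and 3, with a CV (SD over mean) of 10.4%. The next, the unknown protein Peaxi162Scf00030g01518.1, stood at 7182, 7579 and 5571 RPKM. Both were lowest in replicate 3. The undescribed Peaxi162Scf00064g00199.1 ran the other way, at 3900, 4519 and 7147 RPKM. Undescribed Peaxi162Scf00069g00313.1 was the most uneven of the 30, at 4761, 979 and 1833 RPKM and a CV of 78.6%.

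Of the first 30 genes, 7 were aquaporins and 2 were HSP70 chaperones. MLP-like protein 28 (Peaxi162Scf00723g00026.1), of the major latex protein family, held rank 6 at 4555, 3999 and 5251 RPKM. Hydrogen peroxide-induced 1 (Peaxi162Scf01650g00057.1) followed at 4401, 4532 and 3954 RPKM, a narrow range with a CV of 7.04%. An organ-specific protein S2 (Peaxi162Scf00152g00130.1) stood at 3821, 2859 and 4311 RPKM. All of these were measured almost wholly from unique reads.

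Further down the first 30 were an oxygenase, a wall protein, chaperones and a carrier. A 2-oxoglutarate and iron dependent oxygenase (Peaxi162Scf00034g01012.1) was at 2523, 3682 and 2933 RPKM, highest in replicate 2. A BURP domain protein (Peaxi162Scf00799g00412.1), from a family of secreted plant proteins, was at 3116, 2001 and 3646 RPKM, lowest in replicate 2. A dormancy/auxin associated protein (Peaxi162Scf01100g00009.1) was at 1693, 2148 and 2791 RPKM. Both HSP70 chaperones of the list were steady, with a CV of 10.6% for Peaxi162Scf00407g00416.1 and 8.17% for Peaxi162Scf00165g01810.1, and means of 2059 and 1904 RPKM. Sugar phosphate exchanger 2 (Peaxi162Scf00241g00221.1) had a mean of 1952 RPKM.

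Models described as Ycf68 (Peaxi162Scf00987g00215.1) and Rib S10 (Peaxi162Scf00477g00823.1), names given to open reading frames of organelle genomes, stood at 2901, 2792 and 2015 RPKM and at 2449, 2389 and 1737 RPKM. Both were lowest in replicate 3. Unknown protein Peaxi162Scf00263g10122.1 carries the InterPro family of extensins, the hydroxyproline-rich wall proteins, and stood at 1944, 1856 and 2154 RPKM. In the first 30, 8 genes were highest in replicate 1, 7 in replicate 2 and 15 in replicate 3. These 15 include all 7 aquaporins of the first 30. Over the 20813 genes with a mean of at least 10 reads, the shares were 38.5%, 31.2% and 30.3%.

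For 4 of the first 30 genes under 80% of reads were unique, so near-identical copies could take part of their level. Of these, the one with the most reads was an S-adenosylmethionine-dependent methyltransferase (Peaxi162Scf01127g00029.1), with 35.6% unique reads and 1548, 6561 and 4094 RPKM. From unique reads alone it stood at 563, 2424 and 1484 RPKM, which lowered it from rank 8 to rank 42 and left replicate 2 highest. The undescribed Peaxi162Scf00179g00121.1 moved from rank 3 to rank 8, Peaxi162Scf00459g00074.1 from rank 13 to rank 131 and Peaxi162Scf01220g00006.1 from rank 23 to rank 228.

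**Figure D2:**
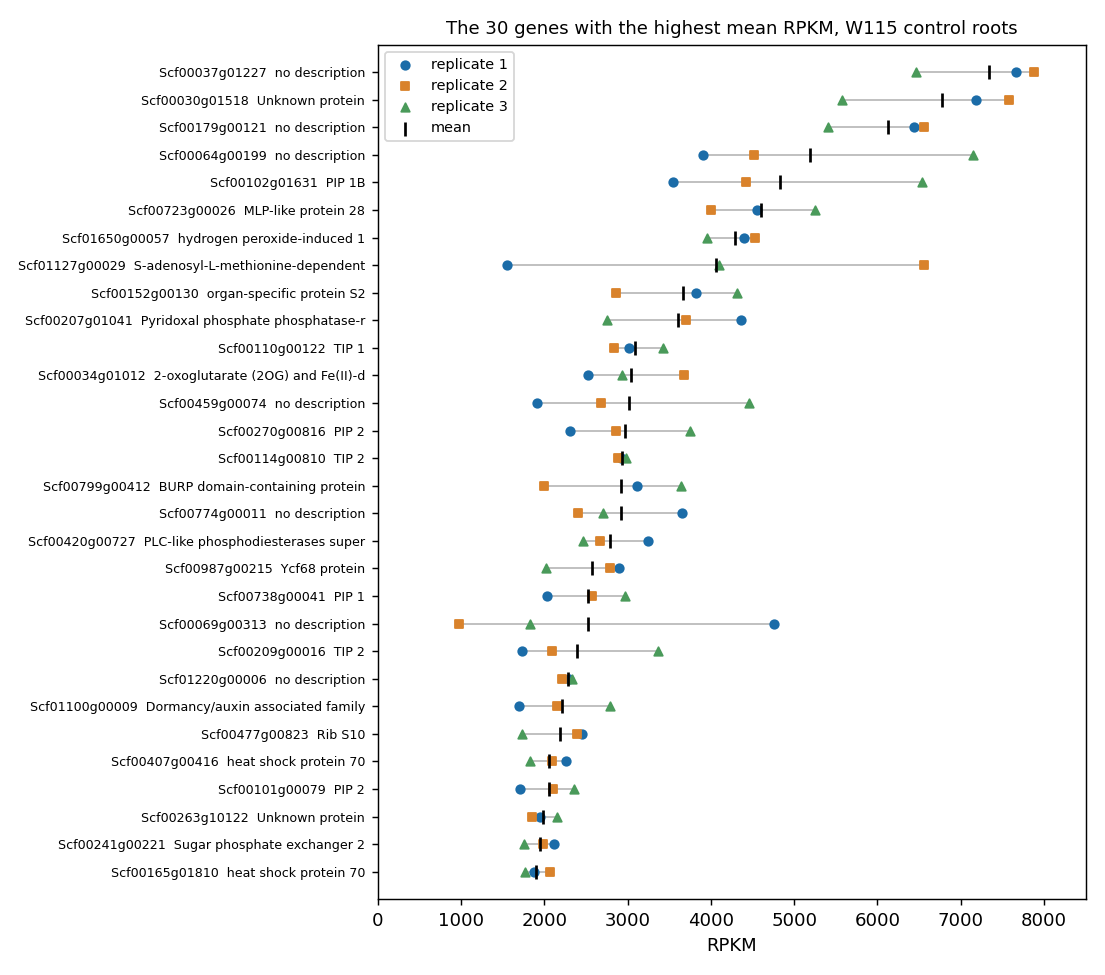
RPKM (horizontal axis) of the 30 genes with the highest mean RPKM, 1 row per gene, with a symbol for each of the 3 replicates, a bar for the mean and a line for the range. The methyltransferase Scf01127g00029 and the undescribed Scf00069g00313 have the widest ranges, 1548 to 6561 and 979 to 4761 RPKM.

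Of the first 30 genes by RPKM, 19 were also among the first 30 by reads. The 5 genes with the most reads outside the first 30 by RPKM held ranks 11, 13, 16, 20 and 21 by reads. They were a basic glucan endo-1,3-beta-glucosidase (Peaxi162Scf00228g00020.1), a second 2-oxoglutarate dependent oxygenase (Peaxi162Scf00207g00835.1), phosphoenolpyruvate carboxylase 3 (Peaxi162Scf00027g00016.1), a beta-glucosidase (Peaxi162Scf00427g00073.1) and enolase (Peaxi162Scf00433g00096.1). Phosphoenolpyruvate carboxylase, which makes oxaloacetate for organic acids, had 34314, 27075 and 27024 reads and 962, 778 and 723 RPKM. The basic glucanase, of a family that cuts the glucan callose, had 33309, 27997 and 39887 reads.

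Aquaporins were the family with the most genes at the top of the ranking. Of 50 models, 36 were detected, 24 reached 100 RPKM and 11 were among the first 100 genes. They held 2.63% ± 0.573 of reads (SD, n = 3), with 2.12% in replicate 1, 2.50% in replicate 2 and 3.25% in replicate 3. This spread was a CV of 21.8%, against a median CV of 5.54% over the 42 named function classes. It rested in part on replicate 3, without which the CV of the aquaporin share was 11.5%, and it was 18.4% without replicate 1 and 29.6% without replicate 2.

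Plasma membrane aquaporins carried most of it, with 20 of 21 PIP models detected and a summed level of 15305, 18759 and 24932 RPKM. PIP1B (Peaxi162Scf00102g01631.1) was the highest at 3543, 4426 and 6532 RPKM, followed by a PIP2 (Peaxi162Scf00270g00816.1) at 2309, 2863 and 3748 RPKM. Both were lowest in replicate 1 and highest in replicate 3, as was the lowest PIP2 with a mean past 100 RPKM, Peaxi162Scf00413g00214.1, at 43.2, 88.1 and 180 RPKM.

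Tonoplast aquaporins summed to 10114, 10918 and 14068 RPKM, with 9 of 12 models detected. TIP1 (Peaxi162Scf00110g00122.1) stood at 3011, 2836 and 3428 RPKM. A TIP2 (Peaxi162Scf00114g00810.1) was level in all libraries, at 2916, 2891 and 2977 RPKM and a CV of 1.52%, whereas a second TIP2 (Peaxi162Scf00209g00016.1) stood at 1726, 2096 and 3366 RPKM. NOD26-like intrinsic protein 5 (Peaxi162Scf01257g00026.1), of a subfamily whose members carry small neutral solutes, was at 479, 732 and 519 RPKM.

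Of 36 aquaporins with a mean of at least 10 reads, 69.4% were highest in replicate 3 and 8.33% in replicate 1. Over all 20813 genes with that many reads the shares were 30.3% and 38.5%. Members of the family are not replicates, and the order of the libraries rests on 3 samples.

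Genes of phosphate starvation and transport held 1.92% ± 0.205 of reads, or 1.31% with the class order reversed, and 90 of 99 models were detected. Their share was 2.13% in replicate 1, 1.91% in replicate 2 and 1.72% in replicate 3, the reverse order of the aquaporin share. The 3 highest genes held 34.9% of the reads of the class. Gene by gene the order was not reversed. Of 90 genes with a mean of at least 10 reads, 46.7%, 21.1% and 32.2% were highest in replicates 1, 2 and 3. Over all genes with that many reads the shares were 38.5%, 31.2% and 30.3%. No group given another phosphate supply was analysed here.

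The highest was a pyridoxal phosphate phosphatase-related protein (Peaxi162Scf00207g01041.1), whose best match in Arabidopsis is a phosphatase for phosphocholine and phosphoethanolamine, at 4361, 3705 and 2759 RPKM. A second member (Peaxi162Scf00038g01325.1) was at 805, 856 and 580 RPKM. A PLC-like phosphodiesterase (Peaxi162Scf00420g00727.1), matched to a glycerophosphodiester phosphodiesterase of lipid breakdown, stood at 3242, 2674 and 2461 RPKM. All of these were lowest in replicate 3.

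The highest models of SPX domain genes 1, 2 and 3, small proteins that report phosphate status, stood at 895, 600 and 544 RPKM on average. Other models described as SPX domain gene 1 or 2 had means of 1.87 to 5.86 RPKM. Of 13 SPX genes with a mean of at least 10 reads, 4, 5 and 4 were highest in replicates 1, 2 and 3. SPX domain gene 1 (Peaxi162Scf01269g00014.1) was at 1099, 887 and 700 RPKM and SPX domain gene 3 (Peaxi162Scf00803g00014.1) at 730, 508 and 394 RPKM, both highest in replicate 1. Phosphate transporter PHO1 (Peaxi162Scf00602g00111.1), which loads phosphate into the xylem, was at 580, 601 and 515 RPKM.

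The next of the phosphate transporters, of the PHT1 type, was Peaxi162Scf00006g00443.1 at 551, 482 and 561 RPKM, with Peaxi162Scf00829g00066.1 at 526, 442 and 472 RPKM. Unique reads were 29.5% and 30.6% of their totals, so the division between these copies is uncertain. Purple acid phosphatases, secreted or vacuolar enzymes that free phosphate, had 25 of 27 models detected and were led by purple acid phosphatase 17 (Peaxi162Scf00171g00924.1) at 472, 384.1 and 331 RPKM.

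**Figure D3:**
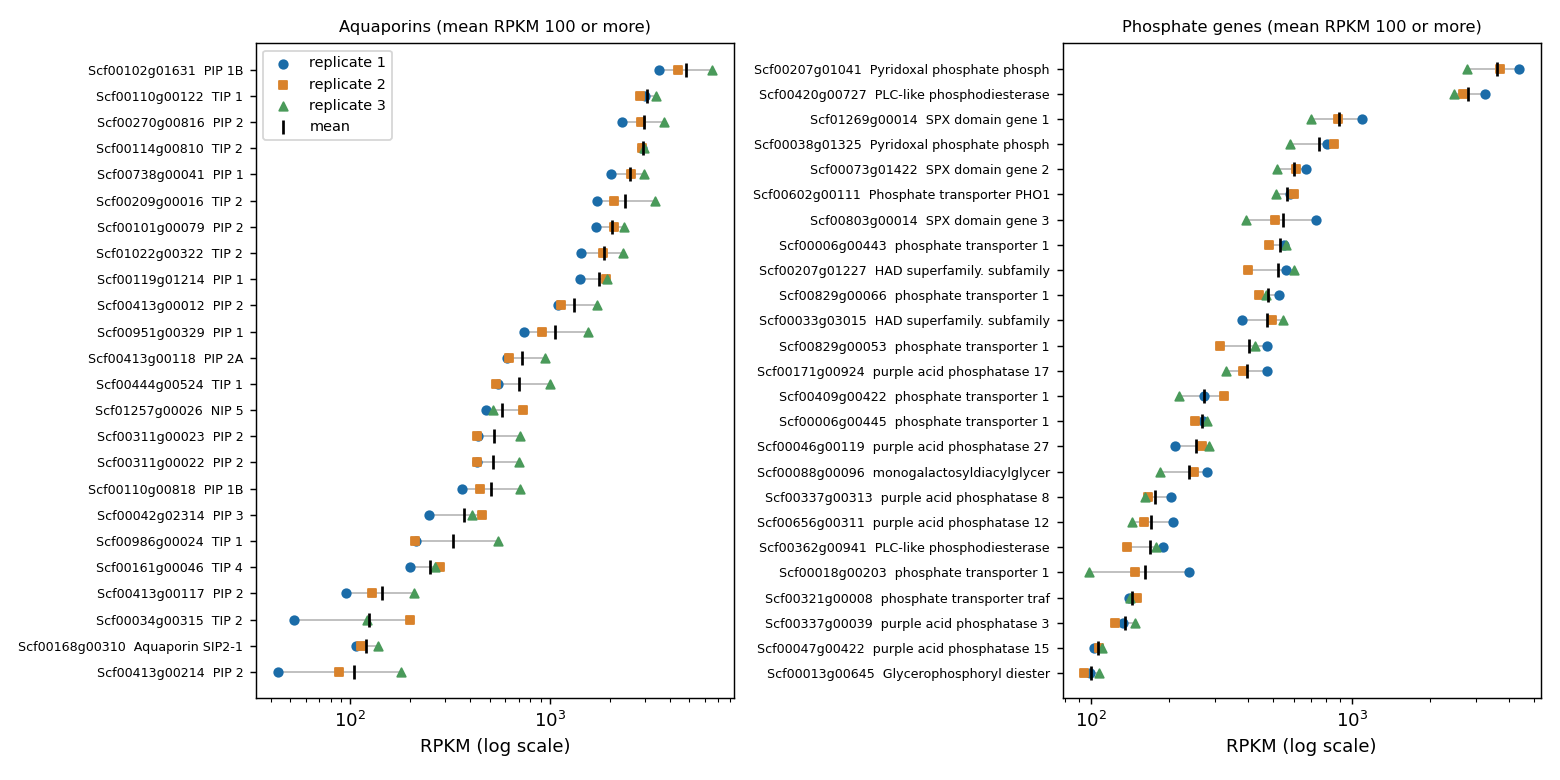
RPKM (horizontal axes, log scale) of aquaporins (left, 24 genes) and of phosphate starvation and transport genes (right, 25 genes) with a mean of at least 100 RPKM, with a symbol for each replicate and a bar for the mean. Replicate 3 lies at the upper end for most aquaporins, and at the lower end for the highest phosphate genes.

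Nitrogen uptake and assimilation held 1.05% ± 0.0580 of reads and 0.656% on the TPM scale, in which RPKM are rescaled to a fixed sum and long genes weigh less. Glutamine synthetase 1 (Peaxi162Scf00562g00216.1), which fixes ammonium in the cytosol, was the highest at 980, 1055 and 873 RPKM, followed by glutamine synthetase 1.3 (Peaxi162Scf01424g00014.1) at 582, 618.3 and 831 RPKM. A nitrate transmembrane transporter (Peaxi162Scf00801g00210.1) stood at 409, 425 and 413 RPKM. Nitrate reductase (Peaxi162Scf00476g00046.1) was at 273, 356 and 242 RPKM, and ammonium transporter 1 (Peaxi162Scf00077g00125.1) at 258, 335 and 256 RPKM, both highest in replicate 2. Sulfate adenylyltransferase (Peaxi162Scf00758g00214.1), the enzyme that activates sulfate, led sulfur assimilation at 1405, 1112 and 1176 RPKM.

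Glycolysis and fermentation held 1.73% ± 0.131 of reads, with 5 genes among the first 100. Cytosolic glyceraldehyde-3-phosphate dehydrogenase (Peaxi162Scf00128g00827.1) was at 1723, 2070 and 1776 RPKM. Fructose-bisphosphate aldolase 2 (Peaxi162Scf00068g01810.1) and triosephosphate isomerase (Peaxi162Scf00760g00322.1) had means of 1538 and 1511 RPKM. Organic acid enzymes held 1.18% ± 0.0554 of reads and 0.672% on the TPM scale, led after phosphoenolpyruvate carboxylase by cytoplasmic malate dehydrogenase (Peaxi162Scf00543g00421.1) at 748 RPKM and NADP-dependent malic enzyme (Peaxi162Scf00493g00436.1) at 589 RPKM. Genes of sucrose and starch metabolism held 0.307% ± 0.00930 of reads and 0.162% on the TPM scale. S-adenosylmethionine synthase 1 (Peaxi162Scf01081g00002.1), which makes the main methyl donor, was at 1663, 1573 and 1583 RPKM.

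Ribosomal proteins held 2.80% ± 0.150 of reads and 5.32% of summed RPKM, since their coding regions are short. Of 381 models 324 were detected and 173 reached 100 RPKM. The highest was 40S ribosomal protein S27-2 (Peaxi162Scf00842g00420.1) at 865, 891 and 1078 RPKM. Histones held 0.695% ± 0.0402 of reads and 1.27% on the TPM scale, led by histone H1-3 (Peaxi162Scf00083g00822.1) at a mean of 1215 RPKM. Chaperones held 2.27% ± 0.123, and ubiquitin and proteasome genes 2.68% ± 0.0268.

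Defense and pathogenesis-related proteins held 1.54% ± 0.313 of reads, a CV of 20.3% that was 9.31% without replicate 2 and 28.9% without replicate 3. Their share was 1.82% in replicate 1, 1.20% in replicate 2 and 1.60% in replicate 3. Endochitinase A (Peaxi162Scf00875g00019.1), which cuts chitin, a polymer of fungal walls, was at 1996, 742 and 1354 RPKM. A thaumatin-family protein (Peaxi162Scf00714g00014.1) was at 1364, 793 and 1513 RPKM with 67.3% unique reads, and Kirola (Peaxi162Scf00723g00019.1) at 1326, 720 and 1296 RPKM. All of these were lowest in replicate 2.

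Wall and lignin genes showed the same low replicate 2 in part. Wall-modifying enzymes did not, at 0.874%, 0.919% and 0.984% of reads in replicates 1, 2 and 3. Among them, xyloglucan endotransglucosylases summed to 1176, 1509 and 1656 RPKM, also lowest in replicate 1. Class III peroxidases, which oxidise lignin precursors at the wall, held 1.13% ± 0.171, and 101 of 131 models were detected. Peaxi162Scf00262g01516.1 was steady at 1020, 1070 and 1120 RPKM, while Peaxi162Scf00418g01014.1 was at 1318, 630 and 717 RPKM. Phenylpropanoid and lignin enzymes held 1.61%, 1.31% and 1.58% of reads in replicates 1, 2 and 3, led by caffeoyl-CoA 3-O-methyltransferase (Peaxi162Scf00016g02023.1) at 1286, 1036 and 1160 RPKM and phenylalanine ammonia-lyase 2 (Peaxi162Scf00488g00074.1), the entry enzyme, at 848, 601 and 948 RPKM. Laccases, which also polymerise lignin, summed to 544, 210 and 302 RPKM.

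The strigolactone genes that the study displays all had reads. D27, the isomerase of the first step, was at 53.7, 59.5 and 45.3 RPKM. CCD7 was at 44.7, 34.0 and 34.3 RPKM and CCD8 at 115.1, 72.6 and 53.0 RPKM; both cleave carotenoids to the strigolactone precursor, and both were highest in replicate 1. The oxidase gene MAX1 had 5, 7 and 5 reads and lay below 1 RPKM. The signalling genes MAX2-A and MAX2-B had means of 4.37 and 5.60 RPKM.

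Genes of the common symbiosis signalling pathway, which relays fungal signals to the nucleus, were all detected. SYMRK, a receptor kinase, was the highest at 135, 118 and 114 RPKM, then the calcium decoder CCaMK at 97.4, 61.7 and 75.8 RPKM and its partner CYCLOPS at 73.9, 59.2 and 48.9 RPKM. The ion channels CASTOR and POLLUX stood at 24.5 ± 1.84 and 20.5 ± 0.463 RPKM (SD, n = 3), levels whose ranges did not overlap. The nucleoporins NENA, NUP85 and NUP133 had means of 17.7, 10.0 and 8.04 RPKM. Levels of CCaMK and CYCLOPS overlapped between libraries.

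Among genes known for mycorrhizal roots, several had few or no reads. RAM2 had no read in any library. For 1 library taken alone this allows up to 3 fragments, of which an intact pair counts as 2 reads. AMT2 and STR had 0, 2 and 1 reads, and RAM1 had 1, 4 and 3 reads. The phosphate transporter gene PT4 stood apart from these at 8.31, 2.74 and 1.54 RPKM, from 320, 103 and 62 reads. The STR2 gene Peaxi162Scf00286g00240.1, an ABC transporter gene, was at 10.2, 5.46 and 2.11 RPKM, while the other STR2 gene lay below 1 RPKM. Both PT4 and the STR2 gene Peaxi162Scf00286g00240.1 were highest in replicate 1. The paper describes PT4 and both STR2 genes as not expressed in control roots. Its qPCR on the same RNA samples reports PT4 induction as undetectable in non-colonized roots. The PT4 gene model is 3126 bases long, and that of the PHT1 gene Peaxi162Scf00006g00443.1 is 1605. Whether all reads of the longer model come from PT4 was not tested. VAPYRIN, needed to host fungal hyphae within cells, was at 23.5, 11.8 and 13.9 RPKM, and its mean of 16.4 RPKM lay above the median of detected genes. EXO70I was at 1.36, 2.09 and 0.828 RPKM.

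Regulators were numerous but individually modest. Transcription factors comprised 1702 models, of which 1102 were detected, and held 3.57% ± 0.0272 of reads. A bHLH protein (Peaxi162Scf00007g01347.1) stood alone among the first 100 genes, at 979, 1044 and 971 RPKM. Ethylene-responsive transcription factor 1 (Peaxi162Scf00207g01542.1) was at 675, 548 and 725 RPKM. Of the families, 102 of 158 AP2/ERF genes, 107 of 188 MYB genes, 93 of 157 bHLH genes and 64 of 80 WRKY genes were detected. Detection over the transcription factor class was 64.7%, near the 62.3% over all gene models. Protein kinases and phosphatases held 4.68% ± 0.0367 of reads from 1133 detected genes, the largest named share by description wording and reads. With the GO identifier for kinase activity in place of the wording they held 3.42%, below other membrane transporters at 3.67% and transcription factors at 3.58%, and on the TPM scale 3.07%, below ribosomal proteins at 5.32%. The highest was somatic embryogenesis receptor-like kinase 1 (Peaxi162Scf00153g01025.1) at a mean of 474 RPKM.

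Function classes were assigned from the wording of the descriptions, and the 42 named classes held 59.9% ± 0.242 of reads. Described genes outside them held 33.5% ± 0.390, unknown proteins 4.51% ± 0.0906 and models with no description 2.11% ± 0.0718. Unknown and undescribed models held more of the summed RPKM, 7.96% and 5.74%. Photosynthesis held the smallest share, 0.0156% ± 0.00111. By the Gene Ontology identifiers in the table, which overlap, 77.3% ± 0.228 of reads fell on genes with any identifier, 8.95% ± 0.0721 on oxidation-reduction process and 4.15% ± 0.539 on transporter activity.

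**Figure D4:**
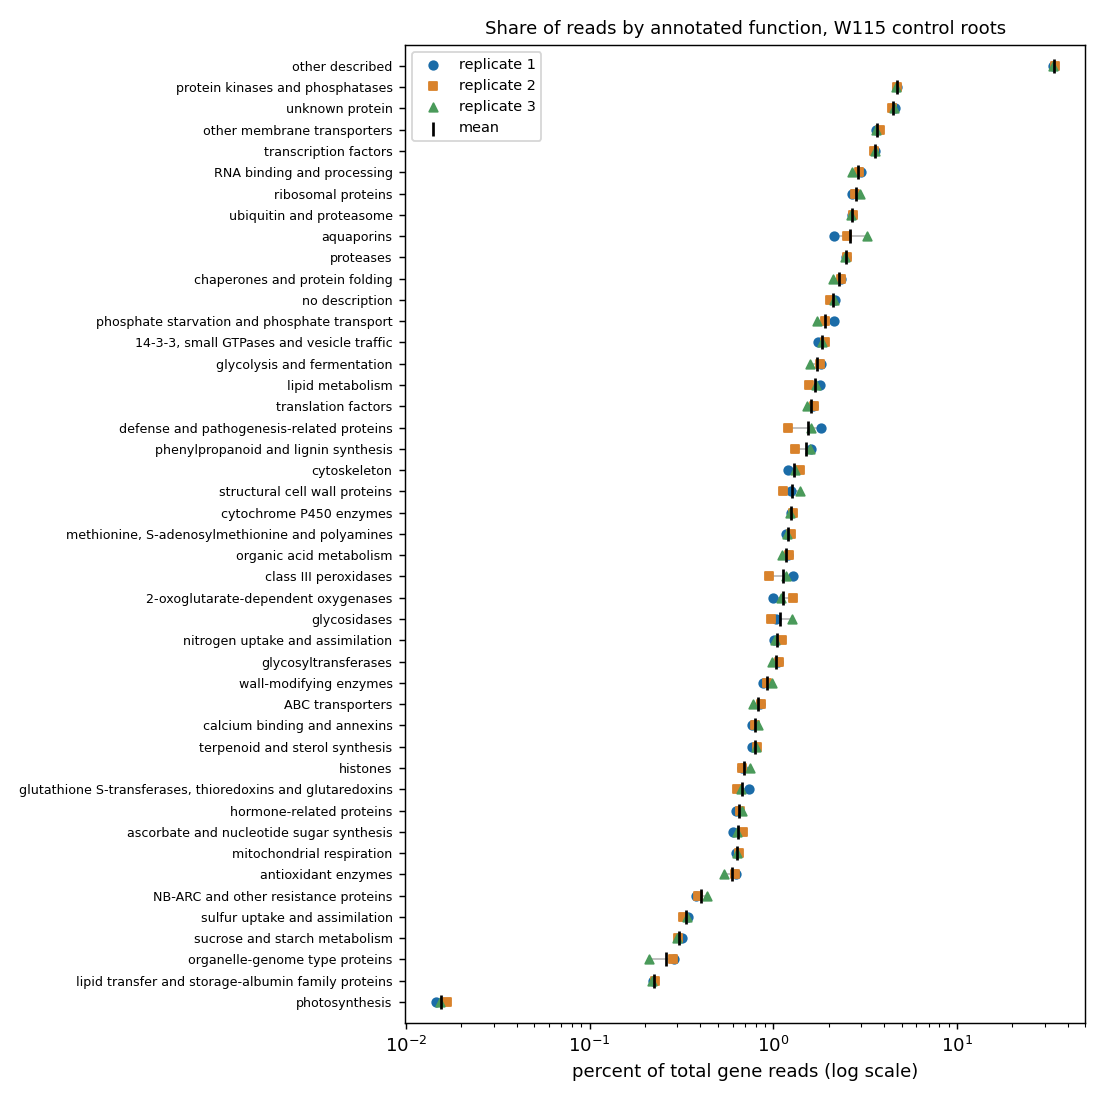
Percent of total gene reads (horizontal axis, log scale) by annotated function, 1 row per class, with a symbol for each replicate and a bar for the mean. Replicates lie close together in most classes, and aquaporins and defense proteins have wide ranges, with CVs of 21.8% and 20.3%.

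The 3 libraries were close to each other over most genes. Across 20813 genes with a mean of at least 10 reads the Pearson correlation of log2(RPKM + 1) was 0.974 for replicates 1 and 2, 0.974 for 1 and 3 and 0.982 for 2 and 3; these are across genes, which are not independent. Between 87.7% and 91.2% of genes lay within 1.5-fold in a pair of libraries. The median CV was 12.6%, and 39.2% of genes had a CV below 10%. The common biological coefficient of variation of edgeR was 19.8%, and 17.8% for genes with a mean of at least 100 reads. The model takes reads as independent while an intact pair counts as 2, so these values still hold part of the counting error.

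For genes with few reads the median CV and counting error were of similar size. For 7046 genes with 10 to 100 reads the median CV was 21.7%, against 22.8% from counting error alone when an intact pair counts as 2 reads. That counting error takes every read as part of an intact pair. Odd counts were found for 51.9%, 51.7% and 52.0% of genes with a read in replicates 1, 2 and 3, so it is an upper value. A CV of 3 values also tends to lie below the true one. Whether the spread of these genes exceeded counting error was not tested. For 2664 genes with 1000 to 10000 reads the median CV was 8.65% against 3.47%, and for 104 genes with more reads 12.4% against 1.12%. For abundant genes the differences between libraries thus exceeded counting error.

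**Figure D5:**
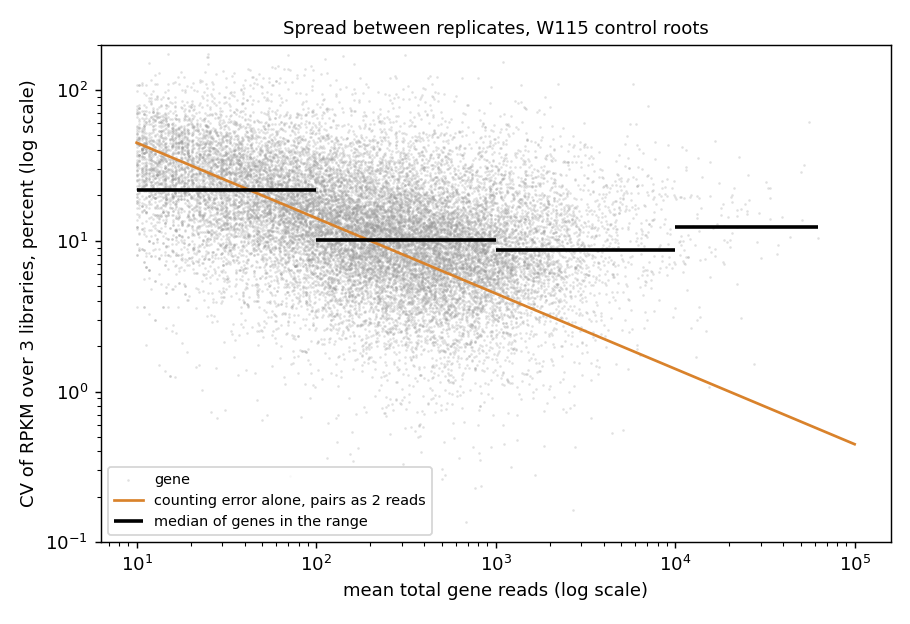
CV of RPKM over the 3 libraries (vertical axis, percent, log scale) against mean total gene reads (horizontal axis, log scale), 1 grey point per gene. Black lines are the median CV of each range of reads. The orange line is counting error alone, with every read taken as part of an intact pair. It starts above the black line of the 100 to 1000 range and falls below it within that range. The median counting error of the genes in that range was 8.12%, against a median CV of 10.1%.

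Among 2768 genes with a mean of at least 1000 reads, 39 had a CV above 50%. The most uneven were cupin and germin-like genes, secreted proteins of 1 superfamily. The cupin Peaxi162Scf00015g01916.1 had 3050, 38 and 231 reads and 329, 4.20 and 23.8 RPKM, a CV of 153%, with 25.7% unique reads. The cupin Peaxi162Scf00194g01046.1, with 17.1% unique reads, stood at 589, 54.6 and 140 RPKM, and germin-like protein 2 (Peaxi162Scf01000g00116.1, 23.3% unique reads) at 1541, 120 and 403 RPKM. Replicate 1 was highest in each of these, and the division of reads between near-identical copies is uncertain.

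Other uneven genes peaked in other libraries. BAG family molecular chaperone regulator 6 (Peaxi162Scf01254g00022.1) was at 10.2, 57.7 and 21.9 RPKM. Zinc-finger protein 2 (Peaxi162Scf00081g00151.1) was at 103, 46.7 and 266 RPKM and Ethylene-responsive transcription factor 5 (Peaxi162Scf00271g00053.1) at 99.6, 53.1 and 253 RPKM. Of the 100 most variable genes, 24 were described genes outside the named classes, 12 were class III peroxidases, 11 were defense proteins, 7 were lipid metabolism genes and 6 were aquaporins. Over all 2768 genes the same groups had 974, 38, 31, 62 and 24 genes. Of the 100, 45 were highest in replicate 1, 17 in replicate 2 and 38 in replicate 3, against 889, 1047 and 832 of the 2768.

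The steadiest genes had a CV under 1%. Inositol polyphosphate 5-phosphatase I (Peaxi162Scf00643g00651.1) was at 193.59, 193.98 and 193.35 RPKM. Superoxide dismutase (Peaxi162Scf01067g00114.1), which removes superoxide, was at 900, 905 and 910 RPKM, and a glycine-rich RNA-binding protein (Peaxi162Scf00684g00327.1) at 999, 990 and 1000 RPKM. With 2768 genes ranked on 3 values each, the lowest CVs lie below counting error and are a description of these libraries. Genes often used as references were set beside the median CV of the 2768 genes, which was 8.80%. The highest actin 7 (Peaxi162Scf00583g00529.1) had a CV of 8.38%, below that median. Elongation factor 1-alpha (Peaxi162Scf00351g00321.1, 62.3% unique reads) had a CV of 8.82%, close to the median. The cytosolic glyceraldehyde-3-phosphate dehydrogenase above (Peaxi162Scf00128g00827.1) had 10.1% and the highest tubulin alpha-4 (Peaxi162Scf00045g02238.1) 16.3%, both higher than the median. These are single genes, and the families gave another order. Over members with a mean of at least 10 reads, a lower limit, the median CV was 25.0% for actin and 14.6% for tubulin. It was 7.86% for elongation factor 1-alpha and 6.94% for glyceraldehyde-3-phosphate dehydrogenase.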

How the data were processed

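The authors trimmed paired-end reads and aligned them to Petunia axillaris transcripts in CLC Genomics Workbench, allowing a read several hits and counting an intact pair as 2 reads. The deposited total and unique gene read counts and the deposited RPKM values (reads scaled to kilobases of gene and to total gene reads) of the 3 W115 control libraries were used. RPKM equalled total gene reads over coding length and library total, and lengths held no UTRs. The 15 other per-sample value columns of the table and the authors' fold changes and test columns were not used. CV was SD over mean of RPKM. The biological coefficient of variation came from estimateDisp in edgeR 4.0.16 with TMM and an intercept-only design. It was tested on simulated independent reads with the same spread for all genes, which cannot show the effect of pairs counted as 2 reads. Genes went to the first function class whose pattern matched their description. Genes named are the first 30, the leading genes of classes and lists, the genes of the study's displays, references, and the 10 most and least variable genes with at least 1000 reads, of which some are omitted here. Members and lists were chosen with earlier results of these data known. No group comparison or test was made. Alternatives used unique reads, TPM, other thresholds, DESeq2 1.42.0 size factors and each library left out. Depth is the library total. A count of 0 in 1 library allows up to 3 fragments, for counting error only, and an intact pair is 1 fragment.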

Additional observations from a re-analysis of the deposited data

How the results depend on the processing

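No paired analysis was possible because no groups were compared. The share of reads held by the 10 most abundant genes moved from 2.80% to 5.10% on a TPM scale, which weights short genes, and to 3.73% when genes were ranked by reads without length scaling. Without length scaling 66 of the first 100 genes remained. The share of reads in named classes was 55.9% on the TPM scale and 56.7% with InterPro or GO identifiers in place of descriptions. Leaving out each library gave 20389 to 20493 detected genes, a share of 2.75% to 2.84% for the 10 most abundant genes, 59.75% to 59.99% in named classes, a biological coefficient of variation of 16.6% to 21.1% and 96 to 97 of the first 100 genes. Detection ranged from 18758 genes at 2 RPKM to 22008 at 0.5 RPKM. Single class shares moved by more than 1 SD in 39 of 42 classes on the TPM scale, 15 with the class order reversed, 12 with identifiers and 7 of 43 results with unique reads. Shares on the TPM scale were 0.492% for organelle-genome type proteins, 0.413% for lipid transfer proteins, 1.03% for mitochondrial respiration, 0.613% for glycosidases, 0.182% for resistance proteins and 0.272% for ABC transporters, from 0.261%, 0.222%, 0.637%, 1.09%, 0.401% and 0.826% of reads. With the class order reversed hormone-related proteins moved from 0.650% to 1.39%. With identifiers resistance proteins fell to 0.0328%, and class III peroxidases to 0, since no gene of the table carries the InterPro identifier searched. Depth limits genes under 100 reads, and the 3 libraries limit every SD given.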
